A study of Mus musculus with 9 samples.

Results

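The regions described here were those where H3K27ac covered the same stretch of the genome in both genotypes but was deeper in cells without Tcf1 and Lef1. Naive CD8+ T cells were used for ChIP-seq with an antibody to H3K27ac, an acetylated lysine of histone H3, and had been sorted as GFP+TCRβ+CD62LhiCD44lo-med cells from the spleen of young adult mice. WT cells came from hCD2-Cre+ Rosa26GFP Tcf7+/+Lef1+/+ mice (4 samples) and dKO cells from hCD2-Cre+ Rosa26GFP Tcf7fl/flLef1fl/fl mice (3 samples), with 1 input sample for each genotype, 9 samples in all. The Cre transgene and the GFP reporter were thus shared by both groups, and the Cre is most active in T cells that have left the thymus. The deposited values were 2 lists of enriched islands, 1 for each genotype, called on the pooled replicates, and each value below therefore stands for a whole genotype with no spread between animals. No test between genotypes could be made, and the 95% intervals cover counting error only.

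Islands of both lists that shared at least 1 bp were joined into 76633 regions, of which 45322 had islands of both genotypes. On chromosomes 1 to 19, 30243 regions held exactly 1 WT and 1 dKO island, and in 12862 of these the overlap was at least 80% of each island. Depth was the count per kb of island relative to the total island counts of the list (82668007 in WT and 57665047 in dKO), and is given as RPKM over those totals. In 362 of the 12862 same-width regions, or 2.81%, the dKO to WT depth ratio was 1.3 or more, and these 362 regions are the subject of the results below. The ratio was used to choose them and is given only as a description. In the other direction, 1612 regions had a ratio of 1/1.3 or less (12.5%), and 5652 lay within 1.1 times of equal depth.

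Acetylation of H3K27 is placed by the acetyltransferases p300 and CBP and is found at active promoters and enhancers. Tcf1 and Lef1 are HMG-box transcription factors that bind the same DNA motif, and in CD8+ T cells they are known to preserve T cell identity and to hold back genes of other lineages and of effector cells.

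5 of the regions are shown by the accessible chromatin site within them, since the study listed these sites as differing in accessibility between genotypes and linked each to a gene. Sites of cluster C1 gained and those of C2 lost accessibility in dKO cells near upregulated genes. Each sequence holds 150 bases of the mm9 genome centred on the listed site, written 5′ to 3′, with matches to 4 motifs in capitals: ATCAAAG of Tcf1 and Lef1, TGTGGTT of Runx factors, TGANTCA of AP-1 and AGGTGTGA of T-box factors, searched on both strands.
Coro2a site (chr4:46605173-46605322, + strand): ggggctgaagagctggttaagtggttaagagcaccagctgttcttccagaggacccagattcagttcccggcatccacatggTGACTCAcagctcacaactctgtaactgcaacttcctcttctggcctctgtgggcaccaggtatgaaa
Gzmb site (chr14:56915035-56915184, + strand): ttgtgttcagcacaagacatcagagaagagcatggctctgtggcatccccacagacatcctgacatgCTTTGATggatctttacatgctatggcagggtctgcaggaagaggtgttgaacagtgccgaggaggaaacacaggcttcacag
Fut8 site (chr12:78887814-78887963, + strand): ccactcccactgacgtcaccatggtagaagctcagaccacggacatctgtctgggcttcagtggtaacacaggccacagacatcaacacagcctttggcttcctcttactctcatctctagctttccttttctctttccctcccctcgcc
Dgkh site (chr14:79092020-79092169, + strand): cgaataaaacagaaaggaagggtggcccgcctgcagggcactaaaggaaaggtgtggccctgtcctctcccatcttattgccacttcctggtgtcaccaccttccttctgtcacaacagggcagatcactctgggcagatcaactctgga
Wdtc1 site (chr4:132884159-132884308, + strand): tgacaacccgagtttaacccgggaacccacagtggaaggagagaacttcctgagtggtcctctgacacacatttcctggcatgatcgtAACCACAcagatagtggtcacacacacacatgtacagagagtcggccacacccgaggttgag

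The Coro2a site held an AP-1 match, the Gzmb site a Tcf/Lef match and the Wdtc1 site a Runx match. The Fut8 and Dgkh sites held none of the 4. Over all 10 listed sites inside these regions, 3 windows held a Runx match, 2 an AP-1 match, 1 a Tcf/Lef match and 0 a T-box match. Among 150-base windows at the centres of all 12862 same-width regions, the shares with a match were 3.78% for Runx, 4.17% for AP-1, 2.25% for Tcf/Lef and 0.669% for T-box. Those centres were not chosen for accessibility, so they are not a matched background for the listed sites.

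For 2 regions that covered the promoter of a gene upregulated in dKO cells, the 250 bases before the most upstream annotated transcript start in the region are shown in the direction of transcription. Neither holds a match to the 4 motifs. Over the 6 such promoter windows read, 1 held an AP-1 match (Ifitm3), and 0 held a Runx, Tcf/Lef or T-box match. In the 250-base windows before all 67114 transcript starts of protein-coding genes on chromosomes 1 to 19, a match was present in 4.26% for Runx, 5.68% for AP-1, 2.70% for Tcf/Lef and 0.898% for T-box.
5830411N06Rik promoter (chr7:147432950-147433199, + strand): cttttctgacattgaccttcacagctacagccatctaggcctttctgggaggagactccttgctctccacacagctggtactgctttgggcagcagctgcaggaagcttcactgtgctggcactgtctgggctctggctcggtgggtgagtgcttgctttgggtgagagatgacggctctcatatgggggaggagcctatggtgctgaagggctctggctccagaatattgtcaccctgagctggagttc
Ccl4 promoter (chr11:83475836-83476085, + strand): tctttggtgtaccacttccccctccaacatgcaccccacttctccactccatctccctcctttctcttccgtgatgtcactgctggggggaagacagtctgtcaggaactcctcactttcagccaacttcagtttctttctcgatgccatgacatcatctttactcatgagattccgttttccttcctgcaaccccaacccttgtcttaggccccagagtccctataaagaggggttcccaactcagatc

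The 362 regions were of modest depth and width. In WT cells they had 83 to 6077 counts, with a median of 388.5, and in dKO cells 80 to 5679 counts, with a median of 368.5. The median width was 3000 bp in WT and 2800 bp in dKO, against 3800 bp in both genotypes for the other 12500 same-width regions. The 2 islands had identical borders in 111 of the 362 (30.7%), against 2953 of the others (23.6%), and of the 362 the dKO island was wider in 117, narrower in 117 and of equal width in 128.

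Before scaling, the median was 136.6 counts per kb in WT and 132.5 in dKO, whereas for the other same-width regions it was 160.5 in WT and 110.8 in dKO. In 131 of the 362 regions the raw dKO count was higher than the WT count, although the dKO list held only 0.698 times as many counts in all. Together the 362 regions took 0.281% of the WT and 0.395% of the dKO island counts. The median depth ratio was 1.36 and the highest was 1.86. The ratio was at least 1.5 in 44 regions, or 0.342% of the same-width regions. The lower bound of the counting interval was at least 1.3 in 61 (0.474%), and above 1 in 361 of the 362. The exception was a 400-bp island in an intron of Tox, which encodes an HMG-box factor of exhausted T cells, with 87 WT and 81 dKO counts and a ratio of 1.33 (0.974 to 1.83).

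**Figure D1:**
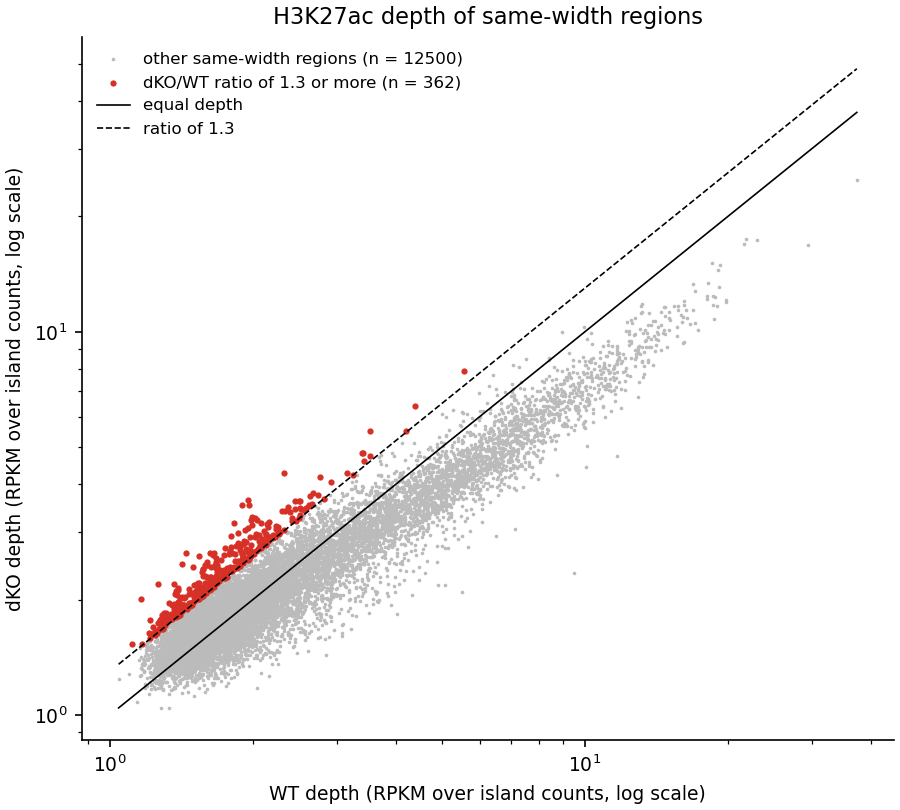
WT depth (x axis) against dKO depth (y axis) of all same-width regions, both as RPKM over island counts on log axes, with 1 point per region. The 362 regions with a ratio of 1.3 or more (red) lie on or above the dashed line and mostly at low WT depth, and the other regions (grey) fall below the line of equal depth as WT depth rises.

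The threshold lay within a continuous distribution. The 3 regions just inside it, near Ppp1r12a, 2210016F16Rik and P2ry1, each had a ratio that rounds to 1.3. Just outside were the Adamts13 promoter, an intron of Cnot4 and a region 61.7 kb from Trpm1, whose ratios also round to 1.3. The interval of 1851 regions outside the threshold reached 1.3.

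The share of same-width regions above the threshold fell with WT depth, which is itself the denominator of the ratio. When the 12862 regions were split into 5 equal parts by WT depth, the share was 4.82%, 3.77%, 3.54%, 1.75% and 0.194% from the shallowest to the deepest. The share with a ratio of 1/1.3 or less went the other way, from 0.0777% to 45.9%. Chromosomes ranged from 1.36% on chromosome 8 to 4.41% on chromosome 13.

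The first region by the lower bound lay between genes. It covered 17.0 kb in dKO (chr1:62866801-62883800, 117 kb from the start of Nrp2, which encodes a semaphorin co-receptor) and had 3040 WT counts and 4203 dKO counts, or depths of 2.33 and 4.29 RPKM, a ratio of 1.84 (1.76 to 1.93). It lay within a super enhancer that the study listed as stronger in dKO. Of the first 12 regions in order of the lower bound, 8 were intergenic, 2 were intronic and 2 were at promoters.

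The intronic leader was in Coro2a, which encodes a coronin, an actin-binding protein (chr4:46597201-46607800). Its island held 1484 WT counts and 2097 dKO counts, with a depth of 1.95 in WT and 3.64 in dKO, a ratio of 1.86 (1.74 to 1.99). The region contains the C1 site printed above, and its nearest edge is 6.96 kb from a Coro2a transcript start. The second was in Gfra1, a GDNF co-receptor gene, with 396 WT and 431 dKO counts and a ratio of 1.74 (1.52 to 2.0).

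The promoter leader was at Tnfrsf22, which encodes a decoy receptor for TRAIL (chr7:150820801-150823600). It had 439 WT and 569 dKO counts in islands of the same 2.80 kb, so that even the unscaled count was higher in dKO, with a ratio of 1.86 (1.64 to 2.11). Tnfrsf22 belongs to a family of near copies, and only 48.2% of the 32-base words sampled from this region occurred once in the genome. The authors kept only reads with a mapping quality above 10, and the effect of the repeated part on these counts was not tested. Synj2, which encodes a phosphoinositide phosphatase, followed with 1340 WT and 1284 dKO counts over its promoter and a ratio of 1.63 (1.51 to 1.76).

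Among the other intergenic leaders, a region 19.3 kb from the olfactory receptor gene Olfr533 had 406 WT and 519 dKO counts and a ratio of 1.83 (1.61 to 2.09). The distances name the nearest protein-coding start and do not assign the region to that gene.

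**Figure D2:**
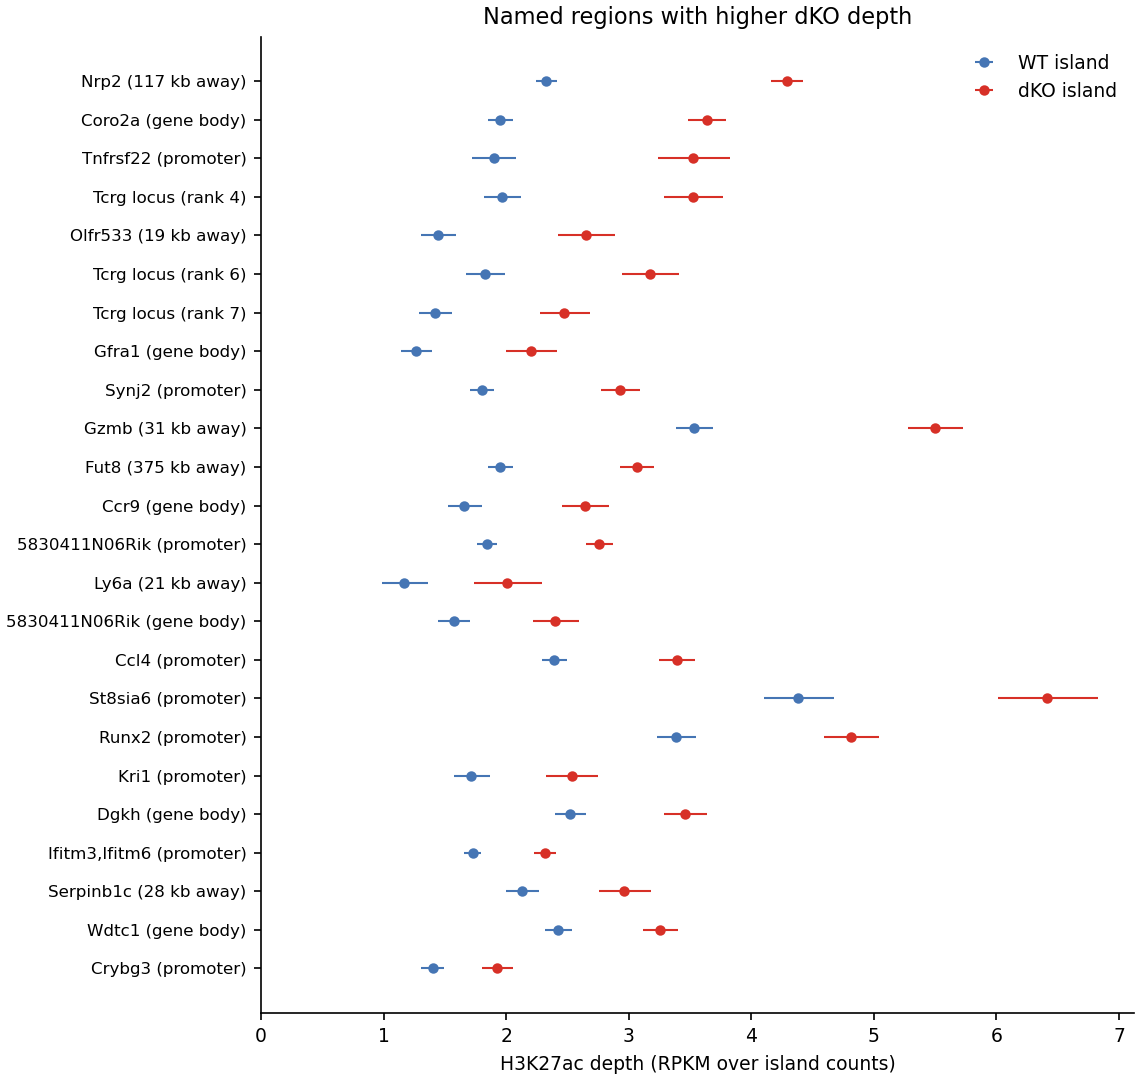
Depth of the WT island (blue) and the dKO island (red) in the 24 regions with the highest lower bounds among those described (Pmaip1 left out), as RPKM over island counts on a linear axis from 0, ordered by the lower bound of the ratio and labelled by the nearest or overlapped gene. Bars are exact 95% Poisson intervals (counting error only). They do not overlap between the lists in these 24, which the choice and order by the ratio and its lower bound favours.

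Of the first 12 regions, 1 lay by a gene of the cytotoxic effector list, Gzmb. Gzmb encodes granzyme B, a serine protease of cytotoxic granules. A region 30.7 kb from its start (chr14:56911801-56919200) had 2103 WT and 2346 dKO counts, with a depth of 3.53 in WT and 5.50 in dKO, a ratio of 1.56 (1.47 to 1.65). The site inside it is in C2, so the study listed lower accessibility in dKO there. The depth is that of the whole island and was not measured at the site. For C2 sites as a cluster, the paper reported similar H3K27ac in both genotypes. At Ccl4, which encodes an inflammatory chemokine, the region spanned the whole gene and its promoter (chr11:83470001-83481000), with 2134 WT and 2151 dKO counts and a ratio of 1.42 (1.34 to 1.51). The C1 site linked to Ccl3 and Ccl4 overlaps the printed promoter window.

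Of 27 same-width regions at the 25 cytotoxic effector genes listed for this work (gene body to 50 kb upstream), 4 were above the threshold and 0 had a ratio of 1/1.3 or less (2.81% and 12.5% over all same-width regions). Besides Gzmb and Ccl4 these included a region upstream of Serpinb6b, a serpin gene, with 950 WT and 786 dKO counts and a ratio of 1.39 (1.27 to 1.53). The fourth was by Serpinb9, whose product inhibits granzyme B, with 419 WT and 421 dKO counts and a ratio of 1.33 (1.16 to 1.53). These serpin genes form a family of similar copies.

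Among effector transcription factors, 3 of 48 regions were above the threshold, against 2.81% over all. At a Runx2 start (chr17:44870401-44876800), a Runx factor gene better known from bone, the region had 1737 WT and 1776 dKO counts, with depths of 3.39 and 4.81, a ratio of 1.42 (1.33 to 1.52). A region overlapping an exon of Prdm1, which encodes Blimp-1, lay 20.3 kb from a Prdm1 start. It had 498 WT and 555 dKO counts and a ratio of 1.41 (1.25 to 1.60). The Tox island described above was the other. In the same list 6 of 48 regions had a ratio of 1/1.3 or less (12.5%, as over all same-width regions).

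Trafficking, cytokine receptor and interferon genes were near the background of 2.81%, at 4.35%, 2.70% and 2.86% of their regions. Ccr9, the receptor for the gut chemokine CCL25, had an intronic region with 576 WT and 731 dKO counts and a ratio of 1.59 (1.43 to 1.78). A region at the Kri1 promoter, upstream of S1pr5, which encodes a sphingosine-1-phosphate receptor, had 539 WT and 555 dKO counts and a ratio of 1.48 (1.31 to 1.67). These were 2 of 46 regions of the homing list.

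Near Il1rl1 and Il18r1, receptors for IL-33 and IL-18, 1 region had 313 WT and 274 dKO counts and a ratio of 1.39 (1.18 to 1.65), the only one of 37 in the cytokine receptor list. By Ly6a, which encodes Sca-1, 1 region had 154 WT and 208 dKO counts and a ratio of 1.72 (1.39 to 2.13), the only one of 35 in the interferon list. Only 33.3% of its sampled words were unique in the genome.

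No region above the threshold was found in 6 of the 14 lists: AP-1 and immediate early genes (17 same-width regions), regulators of the naive and memory state (32), TCR and coreceptor genes (30), Treg and checkpoint genes (35), B cell markers (12) and histone acetylation enzymes (34). At the background of 2.81%, lists of this size would hold about 1 region or fewer, so these counts of 0 do not set the lists apart.

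Markers of other cells gave 2 of 15 regions for NK cells, both in families of similar genes, by Khdc1a (2254 WT and 2075 dKO counts, ratio 1.32) and by Klra7 (223 WT and 205 dKO counts, ratio 1.32), and 2 of 27 for myeloid cells, at Ccr1 (236 WT and 276 dKO counts, ratio 1.37) and by Elane (302 WT and 310 dKO counts, ratio 1.35). Over all same-width regions the share was 2.81%. In the labelled cell type itself, Cd8a, Cd8b1, Cd3e, Cd3d, Cd3g and Lck had promoter islands in both lists. The NK gene Ncr1, the myeloid gene Spi1 and the B cell gene Ebf1 had none in either list, whereas the B cell gene Pax5 had one in dKO only. Whether a change in cell makeup has a part in these results was not tested, and a small number of cells with a strong signal cannot be told apart from a weak signal in all cells.

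Most of the 362 regions stood alone, but 59 had another within 50 kb. Regions within 50 kb of each other were joined into groups, which gave 303 single regions, 20 pairs, 1 group of 3, 1 of 4 and 2 of 6. Both groups of 6 held genes of γδ T cells, and in both all 6 same-width regions of the span were above the threshold.

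The first spanned 74.2 kb on chromosome 7 (chr7:147412801-147487000). It ran from the 3′ part of Cd163l1, also named Scart1, across the whole of 5830411N06Rik, also named Scart2. The start of Cd163l1 lay outside it. Both genes encode scavenger receptors of γδ T cells. The 6 regions together had 7156 WT and 7402 dKO counts. Their ratios ran from 1.34 to 1.52, and the region at the 5830411N06Rik promoter had 2042 WT and 2420 dKO counts and a ratio of 1.5 (1.41 to 1.59). The span held 1 more region with islands in both lists, which had 611 WT and 930 dKO counts and a per-kb ratio of 1.62 but differing widths, and 2 dKO islands without a WT partner. Over the genome the dKO list also held more islands, 82213 against 65563 in WT. Beyond both ends, wider regions of several islands also had more dKO depth, with per-kb ratios of 1.56 and 1.64.

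The second group spanned 100.2 kb on chromosome 13 (chr13:19229201-19329400), from Amph, an amphiphysin gene, across Tcrg-V7, Tcrg-V4, Tcrg-V6 and Tcrg-V5, variable segments of the TCR γ chain. The 6 regions together had 3389 WT and 3929 dKO counts, with ratios from 1.32 to 1.79, and 3 of them were among the first 12 of all. The region at chr13:19310201-19314400 had 682 WT and 853 dKO counts in islands of the same 4.2 kb and a ratio of 1.79 (1.62 to 1.99). That at chr13:19271801-19275800, between Tcrg-V7 and Tcrg-V4, had 513 WT and 732 dKO counts and a ratio of 1.74 (1.55 to 1.95). That at chr13:19325401-19329400 had 446 WT and 570 dKO counts and a ratio of 1.74 (1.54 to 1.97).

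Beside the 6, whose direction the rule fixed, 2 regions of this span had islands in both lists, with per-kb ratios of 1.31 and 1.40, and 4 further dKO islands stood alone, against 1 WT island. Such counts stand beside 82213 dKO and 65563 WT islands in all. Just past the group, the same-width region over Tcrg-V3 had 649 WT and 602 dKO counts and a ratio of 1.06. A further pair lay over exons of Stard3nl, the first of them also touching the end of Tcrg-C, the constant segment (chr13:19444001-19469600), with ratios of 1.31 and 1.46. Parts of the locus are duplicated, and 50% of the sampled words were unique in the region with the ratio of 1.79, but 100% were in the region between Tcrg-V7 and Tcrg-V4.

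**Figure D3:**
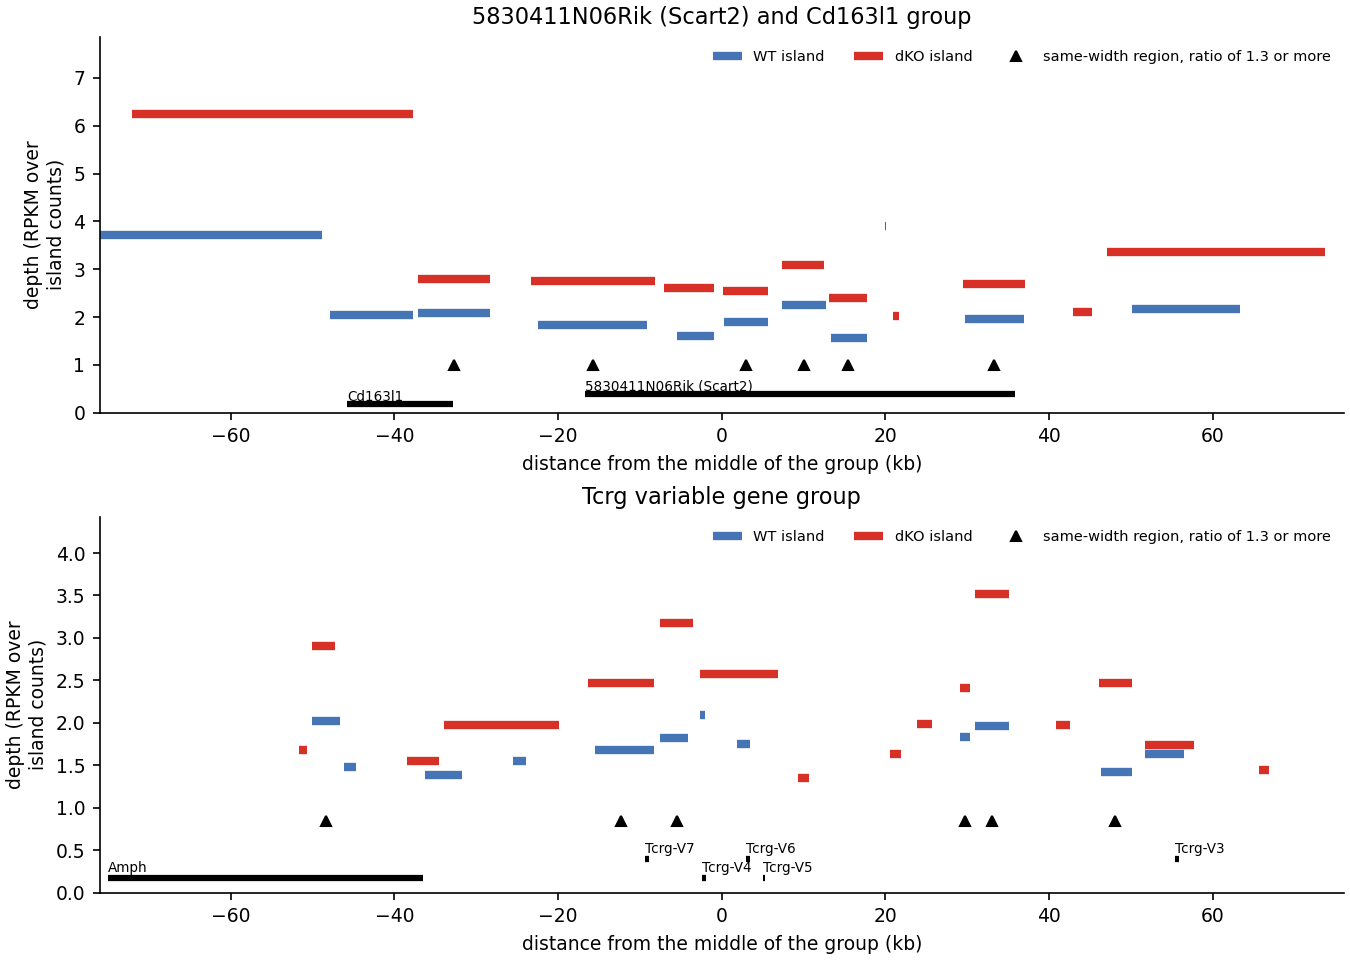
Maps of both groups of 6 regions, with distance from the middle of the group in kb on the x axis and island depth as RPKM over island counts on the y axis (WT blue, dKO red, triangles marking the same-width regions with a ratio of 1.3 or more, black bars annotated genes). Above each triangle the dKO bar is the higher by the rule itself, and dKO islands with no WT partner lie among these regions. More islands were listed in dKO than in WT over the whole genome (82213 against 65563).

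The group of 4, on chromosome 12 (chr12:119639201-119694000), overlapped no annotated gene. Its 4 regions together had 3970 WT and 3955 dKO counts, with ratios from 1.33 to 1.47, and 3 other regions of the span had islands in both lists, with per-kb ratios of 1.47, 1.21 and 1.29. Just past it the per-kb ratios were 1.26 on one side and 0.867 on the other. The group of 3 lay among the Ly49 receptor genes Klra4 and Klra11 on chromosome 6, with 940 WT and 872 dKO counts in all and ratios from 1.31 to 1.5. Its span held 5 same-width regions, so not all were above the threshold. Of the sampled words, 58.3%, 71.7% and 79.2% were unique in the 3 regions, against a median of 95.2% over the 362. The neighbourhood of all 362 regions was then compared. In 266 of the 358 regions with other regions within 50 kb that had islands in both lists (74.3%), the median log2 depth ratio of those neighbours was above 0, against 46.3% around the regions of near equal depth and 33.3% around those lower in dKO. The median over regions was 0.09, -0.01 and -0.06 (log2), respectively. Neighbours could include others of the 362, as for the 59 with another within 50 kb. The rule fixed the direction of those neighbours, so the 74.3% is in part set by the choice of regions.

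Near the deleted genes, 1 of 13 same-width regions within 1 Mb of Tcf7 was above the threshold (2.81% over all), an exonic region of Ppp2ca with 1147 WT and 1108 dKO counts and a ratio of 1.34. Near Lef1 it was 2 of 10, both intergenic and upstream of Lef1, with 159 WT and 185 dKO counts (ratio 1.43) and 429 WT and 405 dKO counts (ratio 1.35). These 3 were named because of their position and after their values were seen.

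Genes that were upregulated in dKO cells by RNA-seq, in other libraries of the study, carried more of these regions than downregulated genes did. Of 425 same-width regions in the body or up to 50 kb upstream of listed upregulated genes, 45 were above the threshold (10.6%, against the background of 2.81%), and 13 had a ratio of 1/1.3 or less. Of 331 regions at downregulated genes, 4 were above the threshold (1.21%) and 60 had a ratio of 1/1.3 or less (18.1%). The median log2 depth ratio was 0.07 at upregulated and -0.10 at downregulated genes, against -0.04 over all 12862. The 45 regions belonged to 42 of 191 upregulated genes with a same-width region, and 6 of the 45 lay at 5830411N06Rik alone. As the gene lists come from the study's own comparison of the same genotypes, they are not an independent sample of mice.

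The 4 regions at downregulated genes were by Rcan3 (1334 WT and 1012 dKO counts, ratio 1.33), Abcb1b (1236 and 1219, ratio 1.3), Lyst (251 and 218, ratio 1.38) and Cryz (189 and 159, ratio 1.41). Abcb1b encodes an efflux pump, and its region held a site of cluster C3, which gained accessibility in dKO near a downregulated gene. In the lowest 3 of the 5 parts of WT depth, the share above the threshold was 13.1%, 10.6% and 16.1% at upregulated genes, and in the deepest it was 5.45% against 0.194% of all regions. At downregulated genes no part exceeded 3.70%.

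At promoters of upregulated genes, 8 of 87 same-width regions were above the threshold, and at those of downregulated genes 0 of 69. Over all 3741 promoter regions it was 33, or 0.882%, a share at which 69 regions would hold fewer than 1. Besides 5830411N06Rik, Ccl4 and Runx2 the 8 included St8sia6, a sialyltransferase gene, with 942 WT and 961 dKO counts and depths of 4.38 and 6.41, a ratio of 1.46 (1.34 to 1.60). Pmaip1, which encodes the BH3-only protein Noxa, had the deepest of all 362 regions, with 1290 WT and 1277 dKO counts, depths of 5.57 and 7.91, and a ratio of 1.42 (1.31 to 1.53). Ifitm3, an antiviral membrane protein gene, shared a region with Ifitm6 that had 2596 WT and 2511 dKO counts and a ratio of 1.34 (1.27 to 1.42). Crybg3, of the βγ-crystallin family, had 856 WT and 911 dKO counts and a ratio of 1.38 (1.25 to 1.51). Atp6v0a1, a subunit of the proton pump of lysosomes, had 252 WT and 190 dKO counts and a ratio of 1.32 (1.09 to 1.60).

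**Figure D4:**
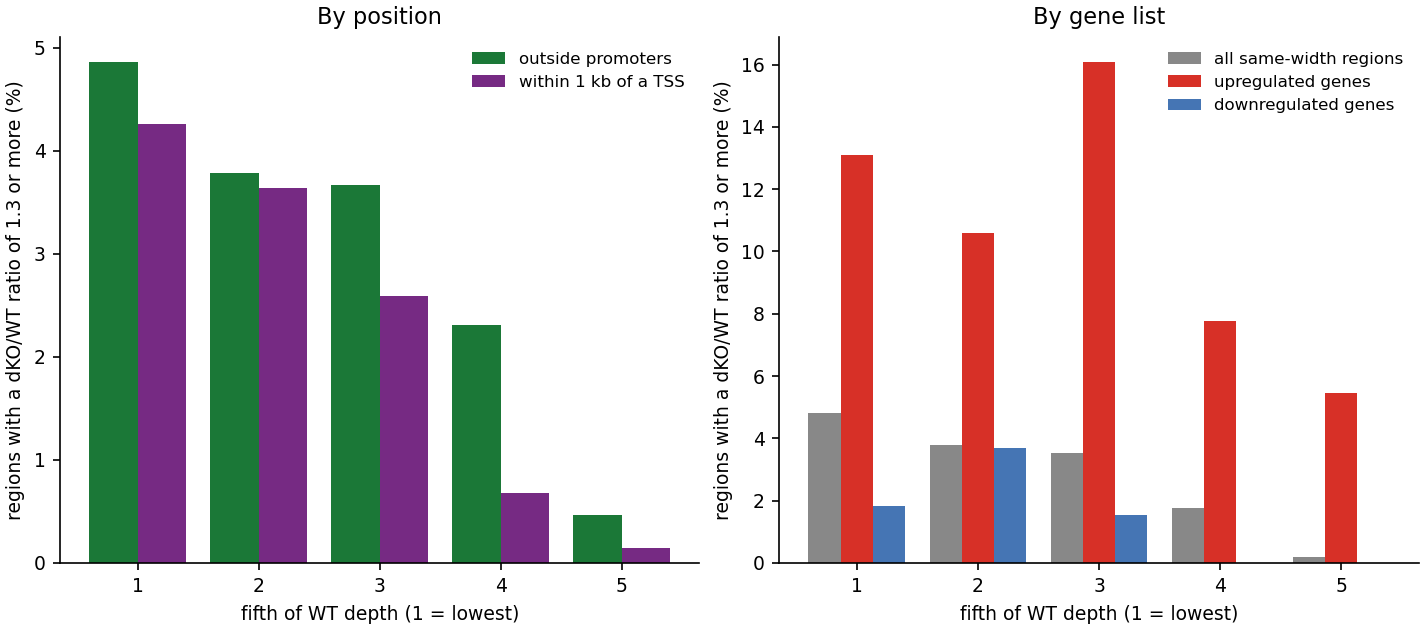
Percent of same-width regions with a dKO to WT depth ratio of 1.3 or more (bars, from 0) in each of 5 equal parts by WT depth, by position (left) and by the study's gene lists (right). At upregulated genes the bars reach 5.45% to 16.1%, above the bar of all regions in each part, and the bars at promoters drop to 0.140% in the deepest part.

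Promoters were rare among the 362. Only 33 lay within 1 kb of the start of a protein-coding transcript (9.12%), against 29.7% of the other same-width regions, 18.2% of those of near equal depth and 68.7% of those lower in dKO. Another 47 overlapped an exon outside promoters, 93 lay in introns and 189 were intergenic (52.2%, against 35.8% of the others). Seen from the positions, the share above the threshold was 0.882% at promoters, 3.0% in exons, 3.22% in introns and 4.05% between genes, and 3.61% of the 9121 regions outside promoters. The median distance to the nearest start was 25.5 kb, against 10.5 kb for the others.

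WT depth moved with position. Promoters made up 2138 of the 2573 regions in the deepest part. In the shallowest part, 8 of 188 promoter regions were above the threshold (4.26%), close to the 4.86% of regions outside promoters. In the next the shares were 3.64% and 3.78%, and in the fourth part 0.677% and 2.31%. How far WT depth accounts for the difference in position was not tested. The 33 promoter regions had a median WT depth of 1.80 RPKM, against 3.92 for the other 3708 promoter regions, and a median observed to expected CpG ratio of 0.207 against 0.365.

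Among listed accessible sites, C1 stood at the highest share of the larger clusters. Of 24 same-width regions with a C1 site, 7 were above the threshold (29.2%, against 2.81% over all) and 0 had a ratio of 1/1.3 or less. For C2 it was 1 of 12, for C3 1 of 2 and for C4, whose sites lost accessibility near downregulated genes, 0 of 15, with 5 lower in dKO. Besides Coro2a, Ccl4 and Serpinb9, the C1 regions were the following. The region with the site linked to Fut8, a fucosyltransferase gene 375 kb away, had 1421 WT and 1945 dKO counts and a ratio of 1.57 (1.47 to 1.68). In Dgkh, a diacylglycerol kinase gene, the region had 1584 WT and 1515 dKO counts and a ratio of 1.37 (1.28 to 1.47).

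In Wdtc1, which encodes a substrate receptor of a ubiquitin ligase, the region had 1923 WT and 2104 dKO counts and a ratio of 1.34 (1.26 to 1.43). The last held 2 C1 sites linked to Atp2b1, a calcium pump gene 180 kb away, with 912 WT and 852 dKO counts and a ratio of 1.34 (1.22 to 1.47). Accessibility was measured in other libraries of the same genotypes.

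Larger domains were also listed by the study, but only those linked to genes that it took as changed in dKO cells. These were 88 super enhancers stronger in dKO and 49 stronger in WT, with 35 dKO-specific and 49 WT-specific hubs. They are a part of all the super enhancers and hubs that the paper found to differ. Within super enhancers listed as stronger in dKO, 45 of 413 same-width regions were above the threshold (10.9%), and within those listed as stronger in WT 4 of 221 (1.81%). The super enhancers were chosen by the study on these H3K27ac samples, so these counts are not independent evidence. Of the 45 regions, 21 were also at upregulated genes, a number in part set by the link to changed genes. Hubs of chromatin contact came from Hi-C libraries: 8 of 83 same-width regions in dKO-specific hubs were above the threshold, 5 of them in the 5830411N06Rik hub, and 0 of 109 in WT-specific hubs (2.81% over all). In dKO-specific hubs 9 of the 83 had a ratio of 1/1.3 or less, and in WT-specific hubs 22 of the 109. The median log2 ratio was -0.0043 and -0.16, respectively. Outside both these listed super enhancers stronger in dKO and the upregulated genes lay 293 of the 362 regions. Super enhancers without a linked gene were not in the lists used, so some of the 293 may lie in them.

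Among genes enriched in single lineages, as listed by the study from public transcriptomes, the share ran from 1.53% to 9.68%, and no difference between lists was tested. The γδ T cell list had 27 of 426 regions above the threshold (6.34%), 6 of them in the 5830411N06Rik group, and the pan-NK list 18 of 314 (5.73%). The Treg list had 10 of 176 (5.68%), the naive CD4 list 3 of 31 (9.68%), of which 2 were at St8sia6, and the effector CD8 list 17 of 403 (4.22%). Monocyte (8 of 205, 3.90%), pDC (10 of 300, 3.33%), granulocyte (17 of 558, 3.05%), pan-T (5 of 237, 2.11%), cDC (3 of 159, 1.89%), naive CD8 (1 of 61, 1.64%) and B cell genes (4 of 262, 1.53%) lay around the background of 2.81%. The lists share genes, and 6 regions counted for both the γδ T and the pan-NK list. The list of CD4 and γδ T markers written for this work had 7 of 14 regions, but 6 of the 7 were in the 5830411N06Rik group.

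**Figure D5:**
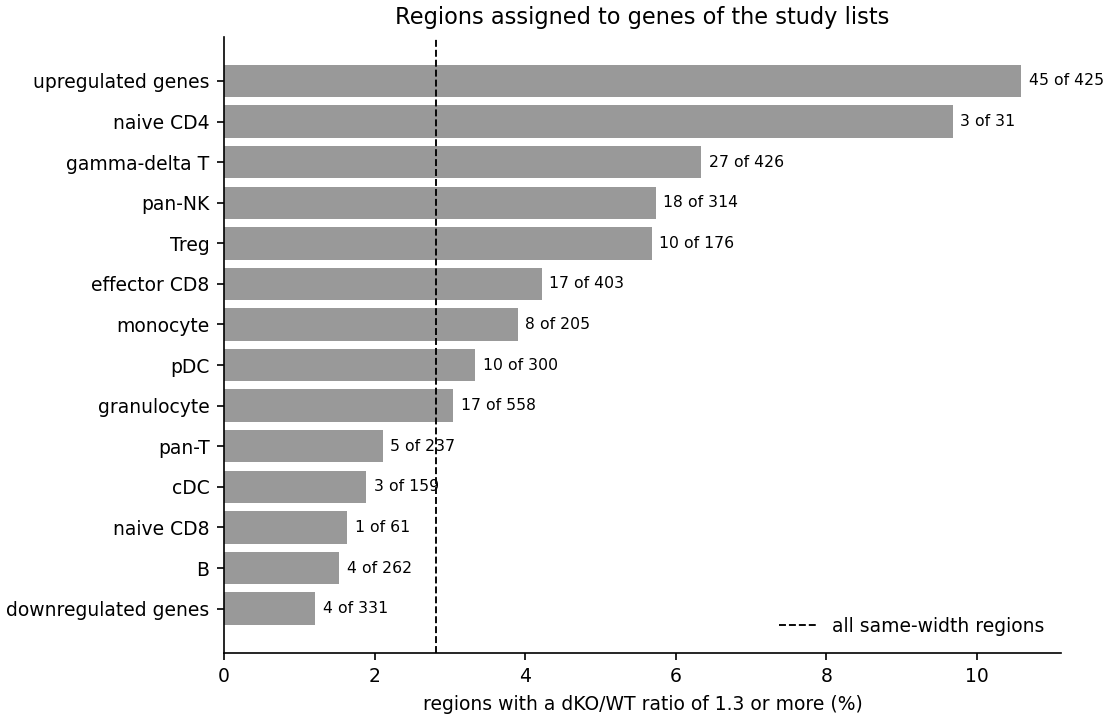
Percent of same-width regions with a dKO to WT depth ratio of 1.3 or more (bars, from 0) among regions assigned to genes of the study's lists, with counts beside the bars. The dashed line is the background of 2.81%, and the bar of upregulated genes reaches 10.6% while that of downregulated genes ends at 1.21%.

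The base composition of the 362 regions differed little from that of the other regions. The median GC content was 45.0%, against 45.6% for the others and 47.3% for regions lower in dKO, and the median observed to expected CpG ratio was 0.178 against 0.210. Outside promoters the median GC content was 44.8% in both sets. The Tcf/Lef motif ATCAAAG occurred 0.159 times per kb in the 362 and 0.165 in the others, and 18.2% of central 1-kb windows held it against 14.7%. Outside promoters these shares were 18.2% and 16.1%, and regions lower in dKO held it in 20.2%. The Runx motif occurred 0.301 against 0.274 times per kb and the AP-1 motif 0.340 against 0.312. Outside promoters the values were closer, 0.301 against 0.281 for Runx and 0.342 against 0.334 for AP-1.

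The Ets motif CCGGAAG, common at promoters, was in 1.93% of central windows against 6.97%, and outside promoters in 1.82% (6 of 329) against 3.99%. Per kb of whole region it occurred 0.0463 against 0.0631 times, but outside promoters the order was reversed, at 0.0452 against 0.0412. The GC-box GGGCGGGG of Sp and Klf factors occurred 0.041 against 0.093 times per kb, and outside promoters 0.038 against 0.042. The IRF motif was in 10.2% of central windows against 13.6%, the NF-κB motif in 0.276% (1 of 362) against 1.09% and the CRE motif in 0.276% (1 of 362) against 0.936%. Per kb of whole region the CRE motif occurred 0.00888 against 0.00867 times. T-box, E-box, CCAAT and Yy1 motifs were within 3 percentage points of the others in the same windows. Motif matches overlap repeats and each other and are a description of the letters only. Finally, the share of sampled 32-base words that occur once in the genome had a median of 95.2% in the 362 regions and 95.9% in the others, and was under 50% in 6 and 153 regions, or 1.66% and 1.22%.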

How the data were processed

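H3K27ac ChIP-seq was made on sorted naive CD8+ T cells (4 WT and 3 dKO samples, 1 input each). According to the study's methods and the submitters' processing notes, the authors aligned reads to mm9 with Bowtie2 2.2.5, kept those with a mapping quality above 10, pooled replicates, and used SICER 1.1 to call islands at an FDR under 0.01, with windows of 200 bp and gaps of 400 bp. In the deposited lists each island has a whole-number count, with no scaling for depth or width. Whether duplicates were removed is not given in the sources used here. Regions with no island have no count, and a total of island counts is not the sequencing depth, so scaling also removes differences in enrichment. The inputs were not analysed here.

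Starts were counted from 0 in the lists, and are given counted from 1. Islands sharing 1 bp were joined, and depth was counts per kb relative to the list's total (RPKM over island counts). Intervals of a ratio are exact conditional binomial (Clopper-Pearson) 95% intervals. Genes and sequence came from GENCODE vM1 and the NCBIM37 genome, which is mm9. Symbols absent there were matched through a RefSeq table (GRCm38.p6, names only). A promoter was 1 kb either side of a protein-coding transcript start, and a gene's regions were those from its body to 50 kb upstream. Names and positions, but no values, were read from the study's lists, with starts of accessible sites taken as counted from 0. Uniqueness used 32-base words taken every 50 bases.

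Regions were ranked by the lower bound of the ratio. Named were the first 12, those at promoters of listed up- or downregulated genes (up to 12), those with listed accessible sites (up to 10), up to 3 for each of 14 gene lists, 3 on each side of the threshold and the 3 groups with most regions. Regions at downregulated genes, near the deleted genes, by Serpinb9 in the list of cytotoxic genes, by Tcrg-V3 and Tcrg-C, and in the group of 3 were named after their values were seen. Some regions named by this rule are not reported here. The regions and lists were chosen with earlier results of these data known. No test across samples was possible. Alternatives changed the overlap, scaling, count filter, threshold, measure, chromosomes and gene assignment. Merging and ratios were tested on simulated data. Python 3.11.15, pandas 2.3.3, numpy 2.4.6, scipy 1.17.1, pysam 0.24.0 and matplotlib 3.10.9 were used.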

Additional observations from a re-analysis of the deposited data

How the results depend on the processing

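No paired analysis was possible because the deposited lists pool the replicates of a genotype and carry no replicate numbers. For the same reason no replicate could be left out. A pooled list has no spread between animals, and the threshold lies inside a continuous distribution. The number of regions moved by over 1.5 times under 7 alternatives and by less under 5. From 362 it went to 890 with an overlap of 50%, 215 with 90%, 680 when lists were scaled by the counts of regions in both, 44 and 984 at ratios of 1.5 and 1.2, 61 when the lower bound of the interval had to reach 1.3, and 658 with counts not divided by width. Of the 362, 259 also had a count ratio of 1.3 or more, and 292 had at least 200 counts in each list. Counting each group of neighbours once, a choice made after seeing the data, left 327.

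The share of same-width regions went from 2.81% to 3.64% (overlap of 50%), 5.29% (scaling by shared regions), 4.04% (scaling to a median ratio of 1), 0.342% and 7.65% (ratios of 1.5 and 1.2), 0.474% (lower bound), 5.12% (counts not divided by width) and 3.61% (outside promoters, chosen after seeing the data). The median log2 ratio of all same-width regions went from -0.041 to -0.030 (overlap of 50%), 0.029 (scaling by shared regions), 0 (scaling to the median), -0.051 (at least 200 counts), -0.056 (counts not divided by width) and 0.012 (outside promoters). The share of promoters went from 9.12% to 19.7% with the lower bound. At upregulated genes the share above the threshold went from 10.6% to 14.1% (scaling by shared regions), 1.65% and 18.4% (ratios of 1.5 and 1.2) and 2.82% (lower bound). At downregulated genes it went from 1.21% to 0 (ratio of 1.5, lower bound, or genes assigned by a start within 1 kb) and 3.63% (ratio of 1.2). The median GC content went from 45.0% to 44.3% (overlap of 50%) and 45.4% (lower bound). The share at upregulated genes stayed above that at downregulated genes under every alternative run for both. The alternatives that move the threshold change the number by construction; for the others the cause was not tested.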
